A study of Rattus norvegicus with 6 samples.

Results

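The mitochondrial respiratory chain passes electrons from NADH through complex I, or from succinate through complex II, to coenzyme Q, and on through complex III, cytochrome c and complex IV to oxygen. The ATP synthase, complex V, makes ATP with the proton gradient that this electron flow builds. Most subunits are encoded in the nucleus, and dedicated assembly factors, which are not part of the finished enzymes, put the complexes together. The genes described here are all those whose annotated symbol begins with Nduf, Sdh followed by a to d, Uqcr, Atp5 or Cox4 to Cox8, or is Cycs or Cyc1. The rule took 91 of the 14217 genes measured, with 102 of 31042 probe sets, and used no expression value. A further 9 probe sets are listed with several symbols, at least 1 of which meets the rule. They were left unnamed, and Cycs, Cox7a2, Atp5mc1 and Atp5mc2 were for that reason not analysed here.

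The arrays hold RNA from primary rat Schwann cells, the myelinating glia of peripheral nerve, labelled as from sciatic nerve and carrying an inducible RafER allele. RafER is a fusion of Raf kinase with the ligand-binding region of the estrogen receptor, which tamoxifen switches on. One group of 3 arrays (RafERtx+ 1 to 3) received tamoxifen for 24 h, and the other 3 (RafERtx- 1 to 3) received the ethanol vehicle. Both groups carry RafER and had been kept for a day in serum-free medium with transferrin, albumin, putrescine and selenium after plating in medium with fetal calf serum. The design text calls the 3 experiments independent, and p-values measure only the spread between these arrays. Tamoxifen was not tested here on cells that lack RafER, so its own action and that of Raf cannot be told apart. The source labels speak of treated rats, but by the design text it was the cultured cells that were treated.

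The values are log2 expression values made by RMA, a method that corrects background, scales arrays and summarises the probes of a probe set. A difference of 1 is a doubling on this scale, and differences are given as tamoxifen minus vehicle. Genes were tested with limma, and rose or fell is written where the Benjamini-Hochberg adjusted p over all probe sets was under 0.05. Where a gene has several probe sets, the one with the highest mean stands for it. The table holds no detection calls, so a low value can be background, and values of different probe sets are not compared as amounts of RNA. Vehicle array 1 stands apart in RNA quality, with a mean 3' minus 5' log2 difference of control transcripts of 0.84, against 0.156 to 0.269 on the other 5 arrays. In such bulk samples, fewer cells of a type and less RNA per cell cannot be told apart.

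After tamoxifen the respiratory chain genes moved little as a group. Of 91 genes 9 rose (9.89%), against 13.9% of all genes, 5 fell (5.49%), against 17.3% of all genes, and 77 did not pass. The genes that rose were Ndufaf4, Ndufaf5, Ndufab1, Ndufb9, Sdhaf1, Sdhaf3, Cyc1, Atp5f1d and Atp5if1, and those that fell were Sdha, Sdhb, Sdhaf2, Ndufaf3 and Ndufb10. Counted by probe set, 9 of 102 rose, against 11.5% of all probe sets, and 6 fell, against 12.9%. The tamoxifen and vehicle values did not overlap for 14 genes that were higher and 12 that were lower, against 23.7% and 25.4% of all genes. At an unadjusted p under 0.05 in either direction there were 21 genes (23.1%), against 43.3% of all genes. Single arrays moved these counts. Without vehicle array 2 there was 1 gene that rose and 3 that fell, without tamoxifen array 3 there were 2 and 3, without tamoxifen array 2 there were 3 and 6, and without vehicle array 3 there were 3 and 3. Without tamoxifen array 1 there were 9 and 3. In these fits 1.1% to 9.89% of the 91 genes rose and 3.3% to 6.59% fell. Over all genes 9.66% to 12.6% rose and 11.9% to 14.9% fell, which is also fewer than with all 6 arrays.

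The sizes were small as well. The median difference over the 91 genes was 0.02, beside 0.01 over all genes, and the median absolute difference was 0.12, beside 0.25. The 5th and 95th percentiles of the differences were -0.34 and 0.51 for the respiratory genes, and -1.16 and 1.12 for all genes. A difference of more than 1 log2 unit was seen in 1 respiratory gene, Ndufaf4, and in 1754 genes in all. The 95% interval of the difference lay between -1 and 1 for 88 of the 91 genes (96.7%), against 75.0% of all genes. It lay between -0.5 and 0.5 for 59 of them (64.8%), against 44.4%. Of the 91 genes, 78 had a mean value of at least 9, and these bright genes had a median absolute difference of 0.13. The same figure over all 4335 genes this bright was 0.41, of which 21.3% rose and 24.0% fell. Of the 78, 7 rose (8.97%) and 5 fell (6.41%).

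**Figure D1:**
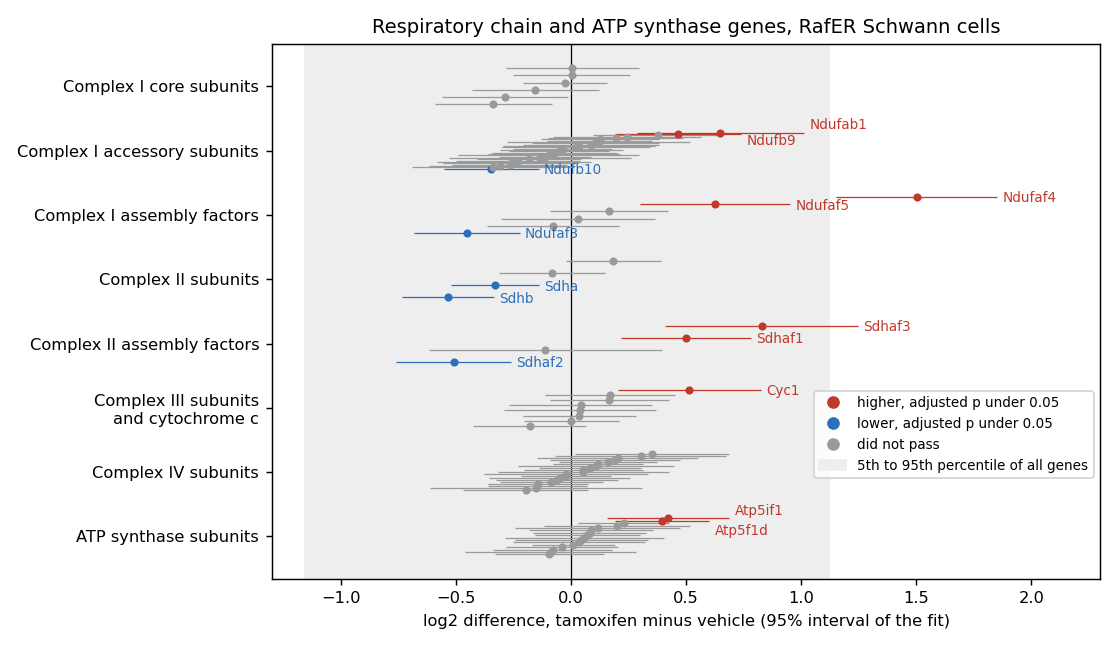
Log2 difference, tamoxifen minus vehicle, of each of the 91 genes (points, with the 95% interval of the limma fit as lines) by role. The grey band spans the 5th to 95th percentile of all genes, -1.16 to 1.12, and Ndufaf4 at 1.50 is the only point outside it.

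Of the 9 unnamed probe sets listed with several symbols, 4 rose (against 11.5% of all probe sets), 0 fell (against 12.9%) and 5 did not pass. The 4 rises were 1.29 ± 0.12, 1.04 ± 0.11, 0.66 ± 0.15 and 0.55 ± 0.10 (SE, n = 3 each), with limma adjusted p of 0.0010, 0.0015, 0.0222 and 0.0091 in the same order, and in each the tamoxifen and vehicle values did not overlap. The other 5 had differences between -0.16 and 0.14. These probe sets may read more than 1 transcript, and they stand in none of the counts above.

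Promoter sequences are shown for the gene with the largest rise, for the 2 complex II subunits that fell and for an ATP synthase subunit that did not pass. They come from RefSeq (GRCr8), run 5' to 3' on the gene's strand over 300 bases, 250 before the annotated start and 50 after it, and 82 of the 91 genes had one. Capitals mark matches, on either strand, to short motifs of factors known to act on respiratory genes. The motifs searched were GCGCANGCG for NRF1 (nuclear respiratory factor 1), CCGGAAG for ETS factors such as GABP, AAGATGG for YY1, TGACGTCA for the cyclic AMP response element (CRE) and AAGGTCA for estrogen-related receptors (ERR). Positions count from 0 at the annotated start. Ndufaf4 lies at chr5:43401545-43401844 (+), with 2 overlapping NRF1 matches on opposite strands from -158 to -149. Sdhb lies at chr5:158547684-158547983 (+), with an ETS match from -108 to -102 and a CRE match from 3 to 10. Sdha lies at chr1:30764303-30764602 (+), with 3 NRF1 matches that begin at -89, -46 and -1. Atp5po, which encodes the oligomycin sensitivity conferring subunit, lies at chr11:44657434-44657733 (-). It has 2 overlapping NRF1 matches from -59 to -50 and a YY1 match from 1 to 7.
Ndufaf4: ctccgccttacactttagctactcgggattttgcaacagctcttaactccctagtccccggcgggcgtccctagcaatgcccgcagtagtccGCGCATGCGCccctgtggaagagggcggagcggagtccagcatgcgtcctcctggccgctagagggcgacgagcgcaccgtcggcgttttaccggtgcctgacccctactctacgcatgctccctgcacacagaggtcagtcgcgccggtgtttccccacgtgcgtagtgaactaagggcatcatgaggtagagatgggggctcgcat
Sdhb: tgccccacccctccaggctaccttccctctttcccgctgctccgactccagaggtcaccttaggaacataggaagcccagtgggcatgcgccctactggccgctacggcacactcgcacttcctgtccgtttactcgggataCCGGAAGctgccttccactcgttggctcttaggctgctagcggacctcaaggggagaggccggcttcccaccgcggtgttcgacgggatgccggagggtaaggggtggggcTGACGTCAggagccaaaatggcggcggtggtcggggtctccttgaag
Sdha: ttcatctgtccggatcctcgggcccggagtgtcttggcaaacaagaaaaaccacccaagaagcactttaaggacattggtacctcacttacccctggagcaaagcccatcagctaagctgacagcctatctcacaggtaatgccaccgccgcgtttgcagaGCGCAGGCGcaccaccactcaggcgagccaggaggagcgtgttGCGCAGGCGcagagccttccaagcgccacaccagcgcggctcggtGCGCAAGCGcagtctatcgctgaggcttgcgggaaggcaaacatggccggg
Atp5po: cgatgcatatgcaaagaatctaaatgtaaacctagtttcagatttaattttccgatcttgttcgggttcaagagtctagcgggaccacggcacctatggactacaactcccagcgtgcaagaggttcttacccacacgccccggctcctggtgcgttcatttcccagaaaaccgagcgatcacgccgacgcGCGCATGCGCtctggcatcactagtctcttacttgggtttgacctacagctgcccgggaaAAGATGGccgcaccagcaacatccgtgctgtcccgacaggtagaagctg

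These letters were common among the respiratory promoters. The NRF1 motif was in 25.6% of the 82, against 11.2% of 11700 promoters of measured genes and 6.26% of all 27457. The ETS motif was in 30.5%, against 15.1% and 9.22%, and the YY1 motif in 24.4%, against 7.84% and 7.30%. The ERR motif was in 13.4%, against 3.15% and 4.37%. The CRE motif was in 3.66%, against 2.85% and 1.91%. Of the 82 promoters, 54 held at least 1 of the 5 motifs. By call, NRF1 matches were in 3 of 7 promoters of genes that rose, 2 of 5 of genes that fell and 16 of 70 of genes that did not pass. ETS matches were in 2 of 7, 2 of 5 and 21 of 70. YY1 matches were in 0 of 7, 0 of 5 and 20 of 70, and ERR matches in 0 of 7, 0 of 5 and 11 of 70. These counts are too small to order the groups, and a match is not a site of binding.

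**Figure D2:**
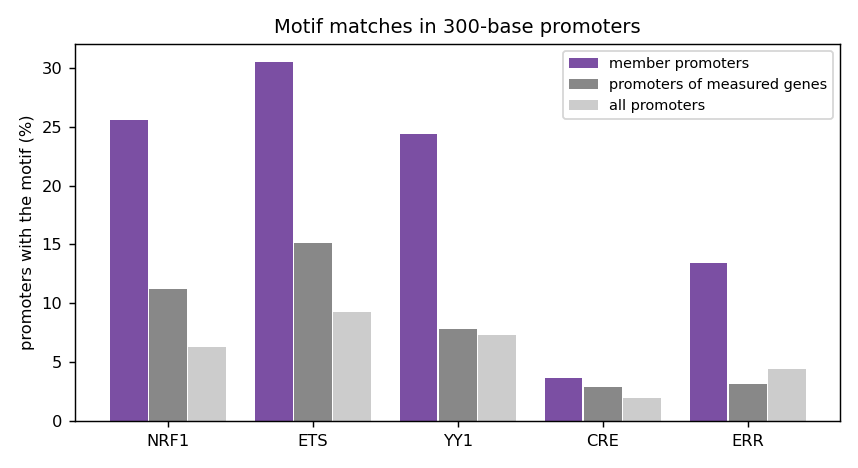
Share of 300-base promoters (per cent) that hold each motif on either strand, for respiratory chain and ATP synthase genes (82), measured genes (11700) and all RefSeq promoters in the table (27457). The purple bar is the tallest for each motif, and the gap is smallest for CRE.

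Complex I takes electrons from NADH, and its core subunits carry the flavin and the iron-sulfur clusters. None of the 6 core subunits on the list rose or fell, against 13.9% and 17.3% of all genes. Their differences ran from -0.34 to 0.01 with a median of -0.09. Ndufs1, the largest iron-sulfur subunit, read 10.24, 10.21 and 10.39 after tamoxifen and 10.26, 10.43 and 10.14 after vehicle. Ndufv1, which binds the flavin and NADH, read 10.73, 10.79 and 10.80 after tamoxifen and 10.77, 10.82 and 10.81 after vehicle. Both groups overlap in each gene. The differences were 0.00 (95% interval -0.25 to 0.26) for Ndufs1 and -0.03 (-0.21 to 0.16) for Ndufv1, so that a difference of 1 log2 unit lies outside both intervals. Ndufs7, an iron-sulfur subunit next to the coenzyme Q site, had the lowest difference of this class, -0.34, with an adjusted p of 0.062.

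The 28 accessory subunits of complex I surround the core. Of these 2 rose (7.14%, against 13.9% of all genes) and 1 fell (3.57%, against 17.3%), with a median of -0.05. Ndufab1, the mitochondrial acyl carrier protein, which also serves fatty acid synthesis in the organelle, read 11.33, 11.85 and 11.78 after tamoxifen and 11.08, 11.04 and 10.90 after vehicle. The tamoxifen values all lay above the vehicle values, with tamoxifen array 1 the nearest to them, and the difference was 0.65 ± 0.15 (SE, n = 3 each; adjusted p = 0.0228). The call was lost without tamoxifen array 2 (adjusted p = 0.0773), tamoxifen array 3 (0.0787), vehicle array 2 (0.0572) or vehicle array 3 (0.0685). Ndufb9, a subunit of the membrane arm, read 12.31, 12.65 and 12.49 after tamoxifen and 12.13, 11.98 and 11.95 after vehicle. Its groups did not overlap, and the difference was 0.46 ± 0.12 (adjusted p = 0.0279). With the experiment as a block the adjusted p was 0.0507, and without tamoxifen array 2 or 3 or vehicle array 2 or 3 it was 0.086, 0.0812, 0.0816 and 0.0808. Ndufb10, another membrane arm subunit, read 10.90, 11.08 and 10.98 after tamoxifen and 11.32, 11.31 and 11.37 after vehicle. All its tamoxifen values were the lower ones, with a difference of -0.35 ± 0.09 (adjusted p = 0.0282), which became 0.0506 with the block. For Ndufb10 the adjusted p was 0.0845 without tamoxifen array 1, 0.0804 without tamoxifen array 3, and 0.0505, 0.0689 and 0.0822 without vehicle array 1, 2 and 3. Of the 25 that did not pass, Ndufb8 had the highest difference, 0.38 (adjusted p = 0.062), and Ndufa12 the lowest, -0.34 (adjusted p = 0.15).
 
Ndufv3, a small subunit beside the NADH site, has 2 probe sets that differ in call. The brighter one, which represents the gene, had a difference of -0.27 and did not pass (adjusted p = 0.117), and the dimmer one fell by 0.57 (adjusted p = 0.032). It was the only one of the 11 further probe sets of the 91 genes to pass.

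Assembly factors of complex I held the largest difference of all 91 genes. Of the 6, 2 rose (33.3%, against 13.9% of all genes) and 1 fell (16.7%, against 17.3%), with a median of 0.10. A class this small differs from the shares of all genes by few genes. Ndufaf4 and Ndufaf3 work together on an early intermediate of the arm that holds the coenzyme Q site, and Ndufaf5 hydroxylates an arginine of Ndufs7. Ndufaf4 read 10.67, 11.08 and 11.19 after tamoxifen and 9.38, 9.53 and 9.53 after vehicle. Every tamoxifen value lay more than a full log2 unit above every vehicle value. The difference was 1.50 ± 0.15 (SE, n = 3 each; adjusted p = 0.0012), or 2.83-fold, and it held under each of the 19 alternatives tried, at 1.40 to 1.65. Ndufaf5 read 8.21, 8.71 and 8.47 after tamoxifen and 7.80, 7.79 and 7.92 after vehicle. The groups were apart, with a difference of 0.63 ± 0.14 (adjusted p = 0.0178), and the call was lost without tamoxifen array 3 (0.0574) or vehicle array 2 (0.056). Ndufaf3 went the other way, at 9.01, 9.18 and 9.23 after tamoxifen and 9.68, 9.55 and 9.55 after vehicle. Its difference was -0.45 ± 0.10 (adjusted p = 0.0162), which held without any single array and was lost without both arrays numbered 1 (adjusted p = 0.079). The Ndufaf3 call was also lost in the test against a fold of 1.2 (adjusted p = 0.215). Ndufaf1, Ndufaf7 and Ndufaf8 lay between -0.08 and 0.16 and did not pass.

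Complex II, succinate dehydrogenase, is also an enzyme of the citric acid cycle. Its catalytic pair fell while its membrane anchors did not pass, so 2 of 4 subunits fell and 0 rose. Of all genes 17.3% fell and 13.9% rose, and a class of 4 genes differs from these shares by few genes. Sdhb, the iron-sulfur subunit, read 11.78, 11.83 and 11.82 after tamoxifen and 12.35, 12.42 and 12.26 after vehicle. The tamoxifen values lay close together and all below the vehicle values. The difference was -0.54 ± 0.08 (SE, n = 3 each; adjusted p = 0.0053), or 0.69-fold, and it was lost only in the test against a fold of 1.2 (adjusted p = 0.0541). Of the 91 genes only Ndufaf4 passed that test. Sdha, the flavin subunit that binds succinate, read 10.87, 10.86 and 10.93 after tamoxifen and 11.17, 11.20 and 11.28 after vehicle. Here too the groups did not overlap, and the difference was -0.33 ± 0.08 (adjusted p = 0.0259). For Sdha the adjusted p was 0.0735, 0.0875 and 0.0566 without tamoxifen array 1, 2 and 3, and 0.0656 and 0.0799 without vehicle array 2 and 3. The anchors Sdhc and Sdhd had differences of 0.18 (95% interval -0.02 to 0.39; adjusted p = 0.182) and -0.08 (-0.32 to 0.15; adjusted p = 0.594). Whether the 4 subunits differ from each other in their response was not tested.

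Of the 4 assembly factors of complex II, 2 rose and 1 fell, against 13.9% and 17.3% of all genes. So small a class differs from these shares by few genes. Sdhaf1 and Sdhaf3 act on the iron-sulfur clusters of Sdhb, and Sdhaf2 is needed to attach the flavin to Sdha. Sdhaf3 read 8.21, 8.87 and 8.58 after tamoxifen and 7.73, 7.58 and 7.86 after vehicle, and Sdhaf1 read 9.31, 9.63 and 9.54 after tamoxifen and 9.10, 8.85 and 9.03 after vehicle. In both genes the tamoxifen values lay above the vehicle values, with tamoxifen array 1 the lowest of its group. The differences were 0.83 ± 0.18 for Sdhaf3 (adjusted p = 0.016) and 0.50 ± 0.12 for Sdhaf1 (adjusted p = 0.0236). Sdhaf3 lost its call without tamoxifen array 3 (0.0545) or vehicle array 2 (0.0526). Sdhaf1 lost it without tamoxifen array 2 (0.0819) or 3 (0.0768) or vehicle array 2 (0.0718) or 3 (0.0546). Sdhaf2 read 8.95, 9.23 and 9.14 after tamoxifen and 9.55, 9.71 and 9.60 after vehicle, all lower, with a difference of -0.51 ± 0.10 (adjusted p = 0.0141). It held without any single array, but not in the unmoderated test (adjusted p = 0.0501) or the test against a fold of 1.2 (0.14). The dimmer probe set of Sdhaf2 had a like value, -0.50, that did not pass (adjusted p = 0.226). Sdhaf4 had a difference of -0.11 (adjusted p = 0.76).

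**Figure D3:**
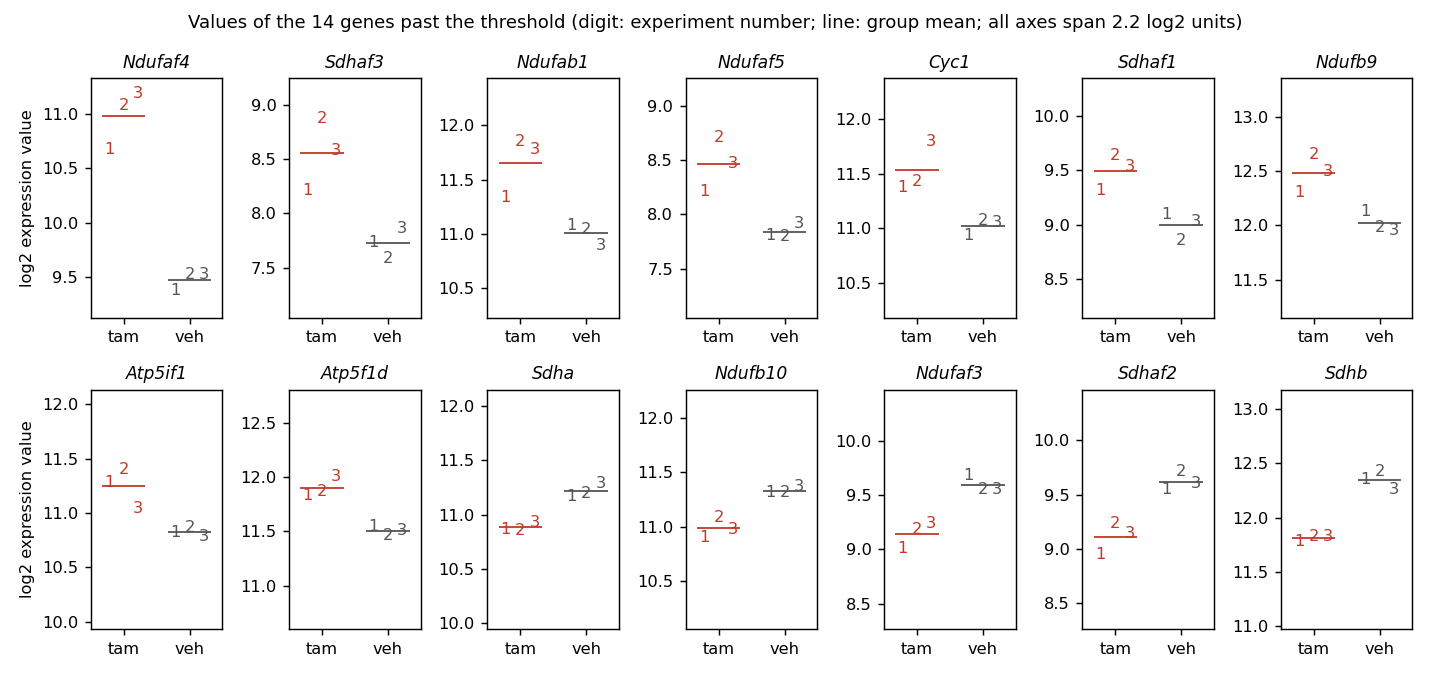
Log2 expression values of the 14 genes that rose or fell, on the 3 tamoxifen and 3 vehicle arrays (digits give the experiment, lines the group means, and every axis spans the same number of log2 units). The groups do not overlap in any of the 14 panels, and in Ndufaf4 they are farthest apart.

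Complex III hands electrons from coenzyme Q to cytochrome c. Of 8 genes 1 rose (12.5%, against 13.9% of all genes), 0 fell (against 17.3%) and the median was 0.04. Cyc1, the cytochrome c1 of the complex, read 11.38, 11.43 and 11.80 after tamoxifen and 10.93, 11.07 and 11.05 after vehicle. The tamoxifen values were the higher ones, array 3 most of all, and the difference was 0.51 ± 0.13 (SE, n = 3 each; adjusted p = 0.0298). Without tamoxifen array 2 or 3 its adjusted p was 0.0617 and 0.051, and without vehicle array 1, 2 or 3 it was 0.0689, 0.0654 and 0.0667. The core protein gene Uqcrc1 had a difference of 0.04 (95% interval -0.21 to 0.28), and Uqcrfs1, the Rieske iron-sulfur protein, one of 0.17 (-0.11 to 0.45).

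Complex IV reduces oxygen, and none of its 19 genes on the list rose or fell, against 13.9% and 17.3% of all genes. Ndufa4 and its relative Ndufa4l2 are counted here, since the Ndufa4 protein is known as a complex IV subunit despite its name. The differences ran from -0.20 to 0.35, with a median of 0.05. Cox4i1, the common form of subunit 4, read 13.05, 13.17 and 13.04 after tamoxifen and 13.10, 13.15 and 13.07 after vehicle, with groups that overlap and a difference of -0.02 (95% interval -0.22 to 0.17). Cox6a1 had a difference of 0.16 (-0.05 to 0.37), Cox8a one of -0.14 (-0.36 to 0.07) and Ndufa4 one of 0.19 (-0.09 to 0.47). The highest difference, 0.35, belonged to Cox5a (adjusted p = 0.12). The 7 entries that stayed under 6 on all arrays were Cox4i2, Cox6a2, Cox6b2, Cox7b2, Cox8b, Ndufa4l2 and the pseudogene Cox6c-ps1. Cox4i2, the alternative subunit 4 known from lung, averaged 5.27 ± 0.06 after tamoxifen and 5.34 ± 0.18 after vehicle, and Cox6a2, the heart and muscle form, averaged 5.54 ± 0.25 after tamoxifen and 5.49 ± 0.18 after vehicle (SD, n = 3 each). Cox7a1, another heart and muscle form, averaged 6.82 ± 0.12 after tamoxifen and 6.91 ± 0.04 after vehicle. Values this low can be background, and nothing is read from them about which form the cells use.

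Of the 16 ATP synthase genes 2 rose (12.5%, against 13.9% of all genes) and 0 fell (against 17.3%), with a median of 0.06. Atp5f1d, the delta subunit of the central stalk, read 11.83, 11.87 and 12.00 after tamoxifen and 11.55, 11.46 and 11.50 after vehicle. The groups did not overlap, and the difference was 0.40 ± 0.09 (SE, n = 3 each; adjusted p = 0.0178). Its adjusted p was 0.0536 and 0.0567 without tamoxifen array 2 and 3, and 0.0588 and 0.0503 without vehicle array 2 and 3. Atp5if1, which blocks the enzyme from running backwards, read 11.28, 11.40 and 11.04 after tamoxifen and 10.82, 10.87 and 10.78 after vehicle. All its tamoxifen values were higher, with a difference of 0.42 ± 0.11 (adjusted p = 0.0352), but its other 2 probe sets, which were dimmer, did not pass (0.17, adjusted p = 0.177; 0.29, adjusted p = 0.072). For Atp5if1 the adjusted p was 0.098 and 0.108 without tamoxifen array 1 and 2, and 0.0685, 0.074 and 0.0944 without vehicle array 1, 2 and 3. Neither the alpha subunit, Atp5f1a, nor the catalytic beta subunit, Atp5f1b, passed. Atp5f1a read 12.09, 12.10 and 12.15 after tamoxifen and 12.12, 12.11 and 12.07 after vehicle, a difference of 0.01 (95% interval -0.17 to 0.19), and Atp5f1b had one of 0.07 (-0.16 to 0.30). Atp5mc3, one of the genes for the rotating c ring, had a difference of 0.23 (0.03 to 0.43; adjusted p = 0.0953). Atp5po, whose promoter is shown above, had one of 0.03 (adjusted p = 0.88).

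Among the tamoxifen arrays the respiratory genes shifted together. Array 2 lay above array 1 in 87 of the 91 genes (95.6%), against 54.9% of all genes. Tamoxifen array 2 held the highest of the 6 values for 52 of the 91 genes, against 2229 of all 14217 genes. Tamoxifen array 1 held the lowest for 33 of the 91, against 1853 of all 14217. The mean over the 91 genes, set against each gene's mean over 6 arrays, was -0.11, 0.17 and 0.00 on tamoxifen arrays 1, 2 and 3, and 0.00, -0.01 and -0.05 on vehicle arrays 1, 2 and 3. Over all genes these means lay between -0.02 and 0.04. The median SD within a group was 0.165 after tamoxifen and 0.0753 after vehicle, and over all genes it was 0.133 after tamoxifen and 0.135 after vehicle. The tamoxifen SD was the larger one for 75 of the 91 genes (82.4%), against 47.1% of all genes. Taken experiment by experiment, the median difference over the 91 genes was -0.13, 0.16 and 0.01, so the sign of the group's median depends on the experiment. In a fit that adjusts for RNA quality by these control transcripts, the adjusted p was 0.054 for Ndufb10, 0.0802 for Cyc1 and 0.0794 for Atp5if1. Without both arrays numbered 1 it was 0.115 for Ndufb10, 0.0865 for Sdha, 0.0684 for Cyc1 and 0.148 for Atp5if1, in addition to Ndufaf3. Calls of single genes rest on this spread, and its part in them was not tested beyond the values without each array.

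**Figure D4:**
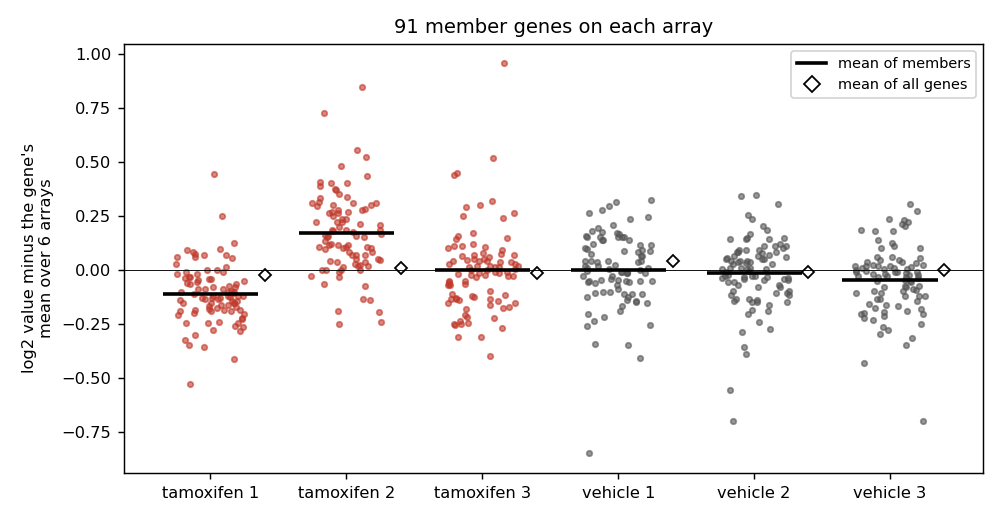
Log2 value of each of the 91 genes minus its own mean over 6 arrays, on each array (points), with the mean of the 91 genes (black bars) and of all genes (diamonds). The bar is highest on tamoxifen array 2, at 0.17, and lowest on tamoxifen array 1, at -0.11.

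Regulators of respiratory genes held a larger rise than any of the 91 genes. Of 15 measured, 4 rose (26.7%, against 13.9% of all genes) and 0 fell (against 17.3%). The list was chosen with earlier results of these data known, so this count is a description only. Pprc1, a coactivator of the PGC-1 family known to be induced by serum, read 9.47, 9.39 and 9.92 after tamoxifen and 7.27, 7.38 and 7.60 after vehicle, a difference of 2.18 ± 0.16 (adjusted p = 0.00055). Esrra, the estrogen-related receptor alpha, read 8.66, 8.77 and 9.18 after tamoxifen and 7.89, 7.43 and 7.74 after vehicle, a difference of 1.18 ± 0.18 (adjusted p = 0.0046). In both genes the groups are far apart, and both calls held in each of 19 alternatives. Tfb1m, which methylates the mitochondrial ribosomal RNA, had a difference of 0.63 ± 0.13 (adjusted p = 0.0129, or 0.0528 without tamoxifen array 2). The differences of Ppargc1a and Ppargc1b, the other PGC-1 coactivators, were 0.03 and 0.21 at values close to 5. Nrf1 had a difference of 0.04, Gabpa of -0.09, Yy1 of 0.05 and Tfam of 0.26 (adjusted p = 0.094), and none of these passed.

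Counts of assembly factors are read against the 13.9% of all genes that rose and the 17.3% that fell, and differ from these by few genes. For complex I outside the Ndufaf genes, 1 of 10 rose and 1 fell. Aifm1 had a difference of 0.56 (adjusted p = 0.0242) that was lost without tamoxifen array 2 (0.0596) or vehicle array 3 (0.0724), or with the adjustment for RNA quality (0.0566). Timmdc1 had one of -0.51 (adjusted p = 0.0324), and its adjusted p was 0.0973 and 0.104 without tamoxifen array 1 and 3, and 0.0723 and 0.0807 without vehicle array 1 and 2. For Timmdc1 it was also 0.163 without both arrays numbered 1, 0.0872 with the adjustment for RNA quality, 0.055 after cyclic loess and 0.0507 with array weights. For complexes II, III and V, with the 4 Sdhaf genes counted again, 3 of 16 rose and 2 fell (18.8% and 12.5%). Bcs1l, which inserts the Rieske protein into complex III, had a difference of 0.74 (adjusted p = 0.0473), with 0.08 under the block, 0.129 and 0.116 without tamoxifen array 2 and 3, and 0.117 and 0.127 without vehicle array 2 and 3. For Bcs1l it was also 0.0511 with the adjustment for RNA quality and 0.0587 after median centring. For complex IV, 4 of 23 rose and 3 fell (17.4% and 13.0%). Higd1a, a hypoxia-inducible protein that binds complex IV, read 10.97, 11.53 and 11.29 after tamoxifen and 10.13, 10.08 and 9.87 after vehicle, a difference of 1.24 ± 0.16 (adjusted p = 0.0027). Coa7 had a difference of 0.94 ± 0.11 (adjusted p = 0.0020) and Cox20, a chaperone of subunit 2, one of -0.73 ± 0.12 (adjusted p = 0.0071). These 3 calls for complex IV held in each alternative.

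Among coenzyme Q genes the 3 largest differences were falls. Of 12 genes for its synthesis and handling, 2 rose and 3 fell (16.7% and 25.0%, against 13.9% and 17.3% of all genes). The differences of the 12 ran from -1.42 to 0.75, with a median of -0.06, and 4 lay above 0 and 8 below. Coq8a, an atypical kinase of the synthesis complex, read 5.96, 6.05 and 5.74 after tamoxifen and 7.16, 7.44 and 7.41 after vehicle, a difference of -1.42 ± 0.12 (adjusted p = 0.00078). Coq10a, which binds coenzyme Q, had a difference of -0.97 ± 0.12 (adjusted p = 0.0025), and Coq7, a hydroxylase of the pathway, one of -0.81 ± 0.13 (adjusted p = 0.0053). The groups did not overlap in any of the 3. Of 8 genes for other entries of electrons to coenzyme Q, 2 rose and 2 fell (25.0% each, against 13.9% and 17.3%). Chdh, choline dehydrogenase, had a difference of 0.84 ± 0.13 (adjusted p = 0.0054), Dhodh, an enzyme of pyrimidine synthesis, one of 0.78 ± 0.14 (adjusted p = 0.0086), and Etfdh, which takes electrons from fatty acid oxidation, one of -0.67 ± 0.08 (adjusted p = 0.0025).

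Among 14 carriers, porins and uncoupling proteins, 3 rose (21.4%, against 13.9% of all genes) and 0 fell (against 17.3%). Slc25a5, an exchanger of ADP and ATP across the inner membrane, read 13.26, 13.19 and 13.41 after tamoxifen and 11.97, 12.17 and 12.11 after vehicle, a difference of 1.21 ± 0.10 (adjusted p = 0.00071). Vdac1, an outer membrane porin, had a difference of 0.68 ± 0.11 (adjusted p = 0.0058). Both calls held in each of 19 alternatives. Vdac2 had a difference of 0.30 ± 0.08 (adjusted p = 0.0337), and its adjusted p was 0.0598 with the block, 0.06, 0.108 and 0.0951 without tamoxifen array 1, 2 and 3, and 0.0732, 0.0741 and 0.0808 without vehicle array 1, 2 and 3. For Vdac2 it was also 0.101 without both arrays numbered 1, 0.0828 with the adjustment for RNA quality, 0.0507 after median centring and 0.0626 after cyclic loess. Of 12 genes for upkeep and transcription of mitochondrial DNA, 1 rose and 1 fell (8.33% each, against 13.9% and 17.3%). Rnaseh1 had a difference of -0.51 ± 0.08 (adjusted p = 0.0070). Mterf3 had one of 0.42 ± 0.11 (adjusted p = 0.0279), and its adjusted p was 0.0975 and 0.09 without tamoxifen array 2 and 3, and 0.0641 and 0.0819 without vehicle array 1 and 3. For Mterf3 it was also 0.0557 without both arrays numbered 1 and 0.0752 with the adjustment for RNA quality. No mitochondrially encoded subunit is among the named genes measured.

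**Figure D5:**
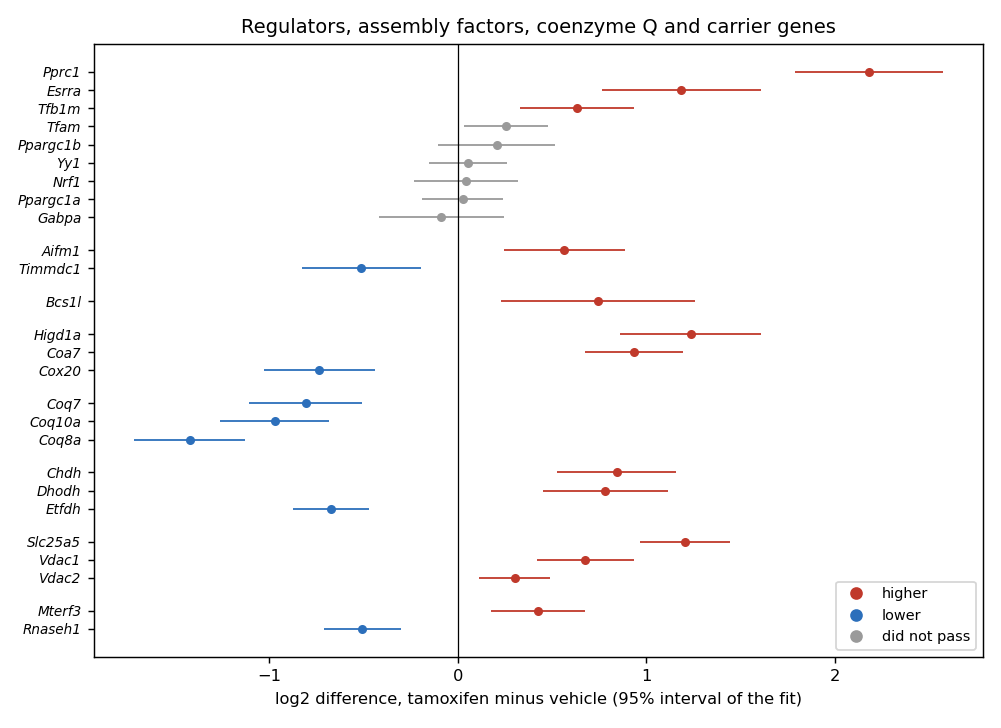
Log2 difference, tamoxifen minus vehicle, with its 95% interval, of genes that regulate, assemble or serve the respiratory chain, grouped from top to bottom as regulators, assembly factors, coenzyme Q genes, other electron entries, carriers and mitochondrial DNA genes. Pprc1 at 2.18 and Coq8a at -1.42 are the extremes.

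The labelled cell type was checked with marker genes. Of 6 measured Schwann cell markers 0 rose (against 13.9% of all genes) and 2 fell (33.3%, against 17.3%). All 6 had differences below 0, from -1.53 to -0.06 with a median of -0.54. S100b, Ngfr, Sox10 and Erbb3 averaged above 10 in both groups. The list also held dimmer markers, with values down to 6.44 after tamoxifen and 7.22 after vehicle. Ngfr averaged 11.46 after tamoxifen and 12.99 after vehicle, a difference of -1.53 (adjusted p = 0.0159), and S100b averaged 12.35 after tamoxifen and 13.11 after vehicle, a difference of -0.76 (adjusted p = 0.0459). Sox10 had a difference of -0.90 that did not pass (adjusted p = 0.104). The summed log2 level of the 6 ran from 59.3 to 60.9 on tamoxifen arrays and from 63.5 to 64.7 on vehicle arrays. Of 7 fibroblast markers 1 rose (14.3%, against 13.9% of all genes), Pdgfra at 0.52. The 3 collagen genes fell (42.9%, against 17.3%). Dcn, Lum and Thy1 lay between 3 and 6 in both groups. Other markers on this list were bright, with values up to 12.86 after tamoxifen and 13.54 after vehicle. The summed levels of the 7 were 48.7 to 49.9 after tamoxifen and 51.7 to 53.9 after vehicle. None of the 7 macrophage, 4 endothelial, 4 smooth muscle and 4 adipocyte markers passed, against 13.9% of all genes that rose and 17.3% that fell. The macrophage sum ran from 34.3 to 34.7 after tamoxifen and 33.4 to 33.9 after vehicle. The endothelial sum ran from 18.1 to 18.4 after tamoxifen and 17.9 to 18.1 after vehicle. The smooth muscle sum ran from 22.1 to 22.4 after tamoxifen and 21.9 to 22.1 after vehicle, and the adipocyte sum from 19.1 to 19.6 after tamoxifen and 18.7 to 19.3 after vehicle. Of 6 skeletal muscle markers, Myh1 was higher (2.82, adjusted p = 0.0037) and Acta1 lower (-2.44, adjusted p = 0.0039). Each is 16.7% of the list, against 13.9% and 17.3% of all genes. The skeletal muscle sum ran from 33.8 to 34.9 after tamoxifen and 33.1 to 34.6 after vehicle. Such a sum does not show the rise and the fall on this list. Its highest single value was 13.20 after tamoxifen and 9.59 after vehicle. RMA values have no 0, and the part of these markers in the respiratory genes was not tested.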

How the data were processed

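RNA of 3 tamoxifen and 3 vehicle cultures had been extracted with a Qiagen RNeasy kit and hybridised to Affymetrix arrays, per the labels. What the authors deposited is 1 log2 value per probe set and array, computed with RMA, per the submitters' processing notes, which name no version in the sources used here. RMA compresses low values, and the number of arrays limits the precision.

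Of the probe sets, 57 controls were left out and 31042 were tested, of which 20826 had 1 annotated symbol, 436 several and 9780 none listed. All 91 members matched the RefSeq table (GRCr8). Groups came from the sample titles. The 2 groups were compared in limma 3.58.1 (R 4.3.3; lmFit, then eBayes), two-sided, on all 6 arrays without covariates or filter, with Benjamini-Hochberg adjustment over all probe sets at 0.05. Errors are SE of this fit unless marked SD. The steps were tested on simulated data.

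The members and lists were chosen with earlier results of these data known. Genes were named as the up to 4 largest rises and falls of each class, fixed members, members with probe sets in conflict, the 3 largest called genes of each related list and fixed regulators. Ndufs7, Ndufb8, Ndufa12, Cox5a, Ndufv3, Atp5po, the uncalled assembly factors, the markers and the other dim complex IV genes were added after their values were seen.

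The experiment numbers were taken to pair the arrays, since deviations from the group means correlated within each number (0.26, 0.20 and 0.28). The main fit, with its SE and intervals, does not use this pairing, which enters only as a block among the alternatives. Alternatives were this block, each array left out, both arrays numbered 1 left out, median centring, quantile and cyclic loess normalization, a filter at a mean of 5, trend and robust eBayes, an unmoderated test, array weights, a test against a fold of 1.2, a gene's probe sets averaged, no shared-probe suffixes, and the 3' minus 5' difference as an RNA quality covariate.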

Additional observations from a re-analysis of the deposited data

How the results depend on the processing

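Counts of respiratory chain and ATP synthase genes depended on single arrays and on the test. The shares of all genes called moved as well and are given beside them. With 1 array left out, between 1 and 9 genes rose and between 3 and 6 fell, by gene as by probe set, and the median difference ran from -0.07 to 0.07. These are 1.1% to 9.89% and 3.3% to 6.59% of the 91 genes. Over all genes 9.66% to 13.5% rose and 11.9% to 15.3% fell in the same fits. Without both arrays numbered 1, 9 genes (9.89%) rose and 2 genes (2.2%) and 3 probe sets fell, against 12.5% and 13.0% of all genes. With the unmoderated test 2 genes (2.2%) and 2 probe sets rose and 4 genes (4.4%) fell, against 7.97% and 7.75% of all genes. Tested against a fold of 1.2, 1 gene (1.1%) and 1 probe set rose and 0 fell, beside 8.0% and 9.17% of all genes. In limma without that margin, 21 genes (23.1%) had an unadjusted p under 0.05, against 43.3% of all genes. With the replicate block, which pairs the arrays of one experiment, 9 genes rose and 4 fell, and Ndufb9 and Ndufb10 were the members that lost their call. These are 9.89% and 4.4% of the 91 genes, against 13.9% and 19.4% of all genes. Under the scalings, filter, weights, covariate and probe set choices the counts stayed within 1.5 times, at 7 to 10 genes that rose and 4 to 7 that fell. Over all genes these choices gave 12.7% to 16.8% that rose and 14.4% to 21.6% that fell.

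Of the 14 called genes, Ndufaf4 passed in each alternative, 13 missed the threshold in at least 1, and 0 changed sign. Of 17 named genes that did not pass, 0 passed in an alternative and 9 changed sign in at least 1. The choice of a level of at least 9, and the related lists under the alternatives, were added after seeing the data. Dim genes near background carry little information on change.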
